A study of Homo sapiens with 12 samples.

Results

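Interferon-induced genes were followed in HA22T and PLC5 hepatocellular carcinoma cells after transfection with a GALNT1 siRNA or a control siRNA. The set held 49 genes chosen by name for being induced by interferon. A probe whose transcript accession maps to the gene was found for 48 of the 49 genes, through 59 probes in all, and IFI27 had none. The arrays as a whole held 50599 probes, of which 28174 mapped to 20503 genes. A gene with more than 1 probe, as 10 of the 48 had, was read from its brightest probe with a value in every group.

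Both siRNAs were given to both lines, which makes 4 groups of 3 samples, each sample on an Agilent one-colour array of its own (12 arrays). HA22T is an established line from a poorly differentiated liver carcinoma, and PLC5 (PLC/PRF/5) is an established hepatoma line that carries integrated hepatitis B virus DNA. All cells, controls included, received 10 nM siRNA with the lipid reagent Lipofectamine RNAiMAX for 48 h before RNA extraction, siGALNT1 being a pool of siRNAs against GALNT1 and siControl a non-targeting one. GALNT1 encodes an enzyme that starts mucin-type O-glycosylation. No group of untransfected or interferon-treated cells was analysed here. RNA was extracted in triplicate, and the labels do not say whether the 3 samples of a group came from separate cultures, so p-values measure the spread between these samples, which may be technical.

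Type I and type III interferons bind their receptors, activate the kinases JAK1 and TYK2 and drive a transcription factor complex that holds STAT2 and IRF9 onto interferon-stimulated response elements in the promoters of their target genes. The proteins made from these genes detect viral nucleic acid, degrade or block viral RNA, tag proteins with the ubiquitin-like ISG15 or feed peptides to MHC class I. Double-stranded RNA and some transfected RNAs can also induce such genes through cytosolic sensors, and many tumour lines keep a basal level of them that differs from line to line.

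A sequence frequent in such promoters is GAAA, any 2 bases, then GAAA, the core of the response element, which was searched on both strands between 250 bases before and 50 bases after the start of each gene (RefSeq promoter sequences, GRCh38.p14). A window was found for 38 of the 49 genes, and 26 of these 38 (68.4%) held the letters, against 1195 of 27305 genes (4.38%). A match describes letters in a window and does not show that a factor binds there. The windows printed here are those of genes whose values are described below, each 50 bases long and lying before the start, written 5′ to 3′ on the strand of the gene with the matches in capitals (TTTC, 2 bases, TTTC is the same motif on the opposite strand). IFI44L held the same 50 bases at chr1:78620264-78620313 and again at chr1:78620355-78620404 (plus-strand gene). RSAD2 (plus strand) is shown at chr2:6877612-6877661, IFIT1 (plus strand) at chr10:89392487-89392536, ISG20 (plus strand) at chr15:88638927-88638976 and GBP1 (minus strand, so the letters are the reverse complement of the genome's plus strand) at chr1:89065306-89065355.
IFI44L: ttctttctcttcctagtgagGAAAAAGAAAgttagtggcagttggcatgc
RSAD2: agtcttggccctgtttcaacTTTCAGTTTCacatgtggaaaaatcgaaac
IFIT1: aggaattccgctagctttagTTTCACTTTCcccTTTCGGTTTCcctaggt
ISG20: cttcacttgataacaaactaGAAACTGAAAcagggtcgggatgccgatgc
GBP1: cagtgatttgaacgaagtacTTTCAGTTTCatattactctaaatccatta

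The matches lay at varied distances, with the IFI44L pair 164 and 73 bases before the start and the IFIT1 pair 116 and 103 bases before it. At least 2 matches in a window were found for 14 of the 26 genes. PARP9 and DTX3L, neighbours read in opposite directions, shared 1 match between their starts. The letters were absent from the windows of CMPK2, HERC6, IFI16, IFI35, IRF1, IRF9, OAS1, PSMB9, RIGI, SAMD9L, STAT2 and XAF1.

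**Figure D1:**
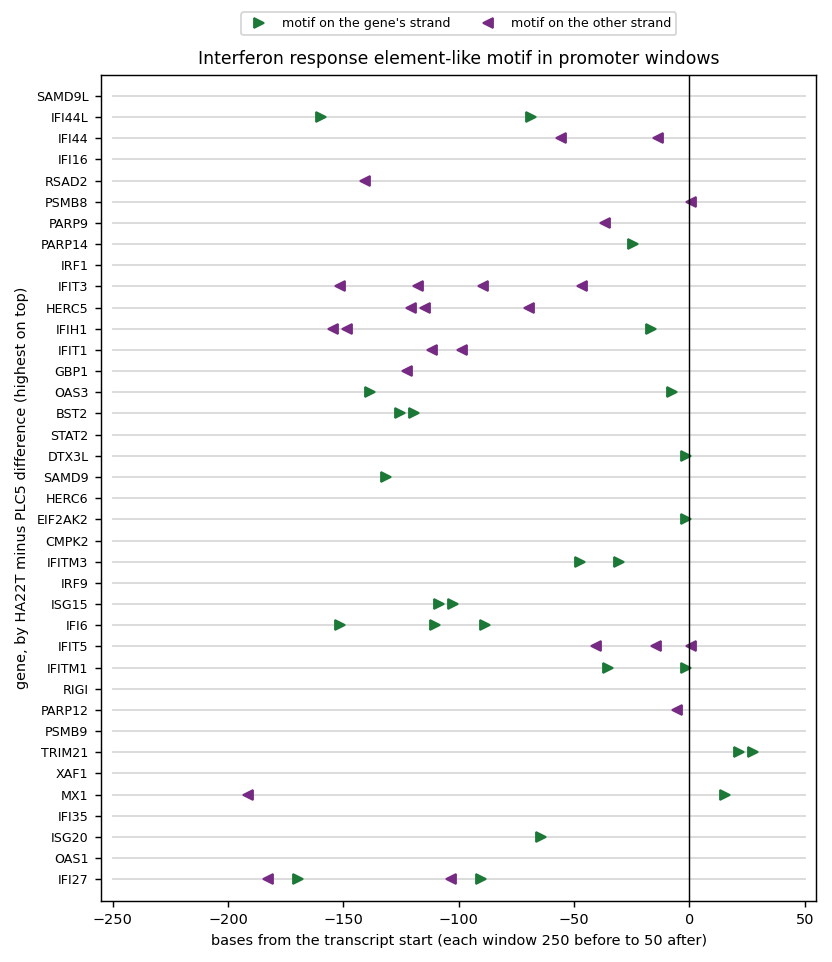
Position of each match of GAAA, any 2 bases, GAAA (either strand) in the promoter windows of the 38 genes with a window, in bases from the start of the gene. Each point is 1 match in a window, and the 12 genes without a match have an empty row. IFI44 and IFI27 show the same sites more than once because their windows overlap.

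Levels are given as log2 of the array signal minus the 75th percentile of the array, so 0 is the brightness that 75% of spots stay below, and 1 unit is a doubling. Every array carried 58717 spots that were no controls, of which 36679 to 48873 were well above background by the scanner software, 489 to 3633 were non-uniform and left out, and 0 were saturated. Replicate arrays correlated at r = 0.968 to 0.988. GALNT1 lay at 1.32, 0.75 and 0.85 on the HA22T siControl arrays and at -3.15, -3.68 and -5.55 on the siGALNT1 arrays, and in PLC5 at 0.87, 0.37 and 0.61 against -1.93, -3.47 and -3.92, so it was lower on every siGALNT1 array. The differences of -5.10 and -3.72 had limma adjusted p = 0.0708 and 1, and a second GALNT1 probe in HA22T gave -4.75 (limma adjusted p = 0.0305). Of 16 hepatocyte markers, 9 and 6 were well above background on all 3 arrays of HA22T siControl and HA22T siGALNT1 and 16 and 15 in the PLC5 groups. Their summed level on the log2 scale was 2.87 to 3.31 in HA22T and 7.72 to 8.37 in PLC5, and APOH was not well above background on any HA22T siControl or siGALNT1 array. A list of leukocyte markers gave summed levels of 4.65 to 6.05 in HA22T and 4.49 to 5.56 in PLC5, and 5 of its 6 genes with a probe were well above background on all 3 arrays of every group. Slide 1 held the 6 HA22T arrays together with replicate 1 of each PLC5 group, and slide 2 held replicates 2 and 3 of PLC5.

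Most interferon-induced genes were detected in both lines. In HA22T, 44 genes were well above background on all 3 siControl arrays and 40 on all 3 siGALNT1 arrays, and in PLC5 the counts were 38 and 39. MX1, the dynamin-like GTPase that traps viral nucleocapsids, was not well above background on any of the 12 arrays and is not compared. IFI44L, RSAD2 and SAMD9L were likewise dim on every PLC5 siControl array, and IFI44L and RSAD2 on every PLC5 siGALNT1 array. In bulk RNA such as this, fewer cells with a transcript and less of it per cell cannot be told apart. Over the 33 genes well above background on all 12 arrays, the median level on an HA22T array was 0.14 to 0.67 for siControl and -0.34 to 0.30 for siGALNT1. On a PLC5 array it was -1.11 to -1.01 for siControl and -1.17 to -0.83 for siGALNT1. The ranges of the lines did not overlap, while those of the 2 siRNAs did within each line. By replicate number the HA22T median was lower with siGALNT1 each time, at -0.23, -0.34 and 0.30 against 0.30, 0.14 and 0.67. The median difference of all genes in these pairs was -0.222 to -0.0537.

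**Figure D2:**
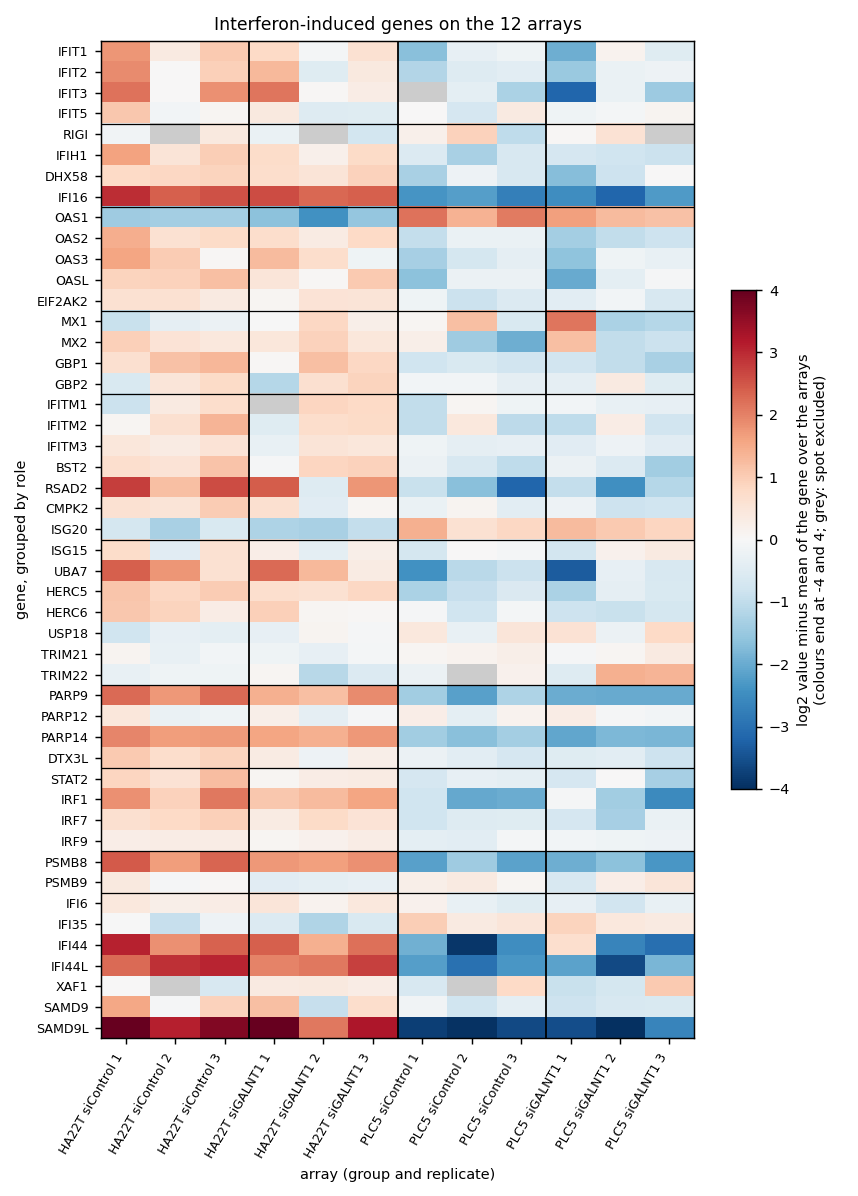
Level of each of the 48 genes on each of the 12 arrays, as log2 minus the mean of that gene over its arrays, grouped by role (rows) and by line and siRNA (columns). Colours end at -4 and 4 and grey marks a spot left out as non-uniform. The contrast runs between the HA22T and the PLC5 columns, with OAS1, ISG20 and IFI35 in the opposite direction to most rows.

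The difference between the lines was tested first in the siControl cells, with limma on all 12 arrays and Benjamini-Hochberg adjustment over 38006 probes. Of the 47 interferon-induced genes bright enough to be counted, 24 were higher in HA22T at an adjusted p below 0.05 and 3 were lower, against 14.2% higher and 12.4% lower among all 17414 genes. The remaining 20 did not pass the test. Among the 24 were IFI44L, RSAD2 and SAMD9L, well above background on HA22T siControl arrays only and so counted through HA22T alone. Their p-values set a signal against PLC5 background and do not test the bounds given below. The median difference, HA22T minus PLC5, was 1.36 on the log2 scale for these genes and 0.0985 for all genes. The siGALNT1 cells, measured on the 6 other arrays, gave 18 higher and 3 lower of 46 counted, with 11.6% higher and 15% lower among all 17198 genes and a median of 1.03 against 0.0668. At 1.5-fold with an unadjusted limma p below 0.05, 26 were higher and 4 lower with siGALNT1, against 18.7% and 20.2% of all genes. Not called among these were DTX3L, EIF2AK2, IFIT3, IFITM1, IFITM3, OAS3, OASL and STAT2, higher, and TRIM22, lower (-1.28). TRIM22 was well above background on 1 HA22T and 2 PLC5 siGALNT1 arrays, and within slide 1 its difference was -0.001. The other OAS3 probe differed by -1.22 with siGALNT1. Of the 27 genes called with siControl, 20 were also called with siGALNT1, which is 74.1% of the first list and 95.2% of the second. These were 17 genes higher and 3 lower in HA22T, and 43 of 46 genes had the same sign in both comparisons, all but IFIT5, RIGI and XAF1. The same overlap was not counted over all genes, so it is not read as particular to this set. The summed hepatocyte markers moved the other way with the line, 13 of 16 being called lower in HA22T siControl, and their part in the difference of the interferon-induced genes was not tested.

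**Figure D3:**
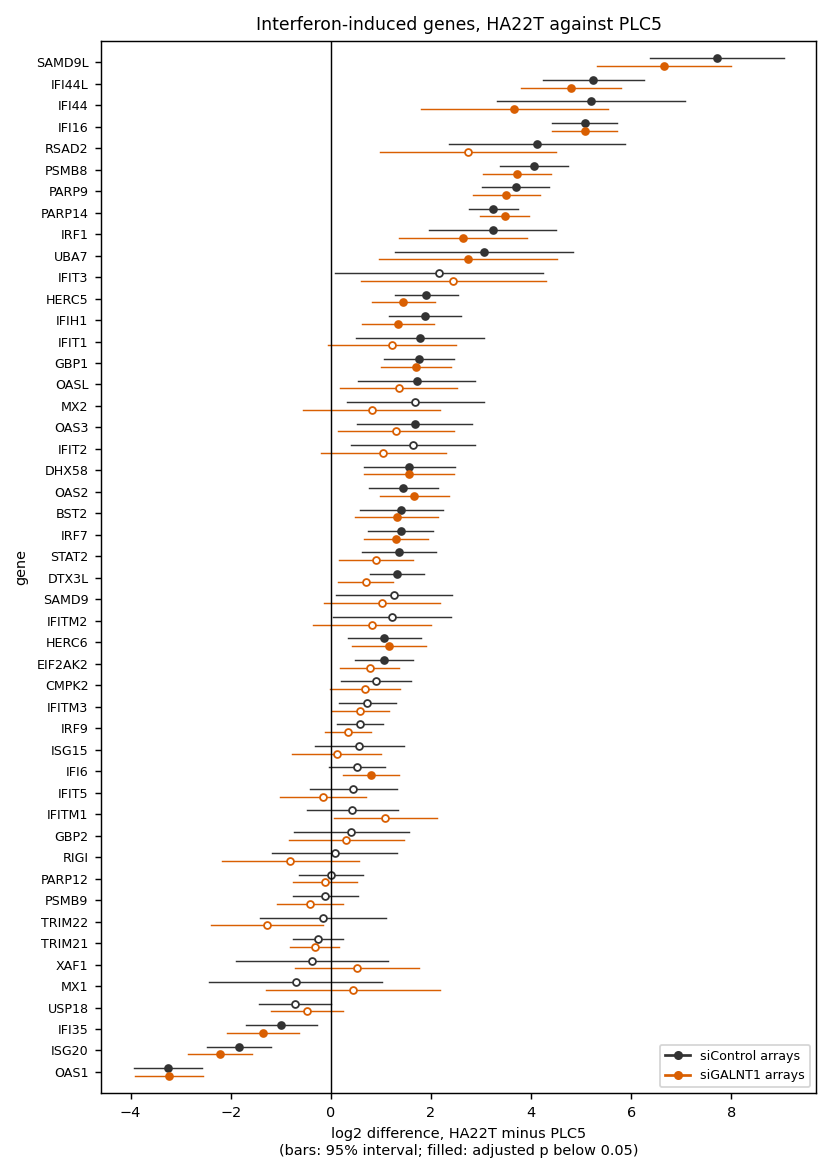
Difference between the lines for each gene, HA22T minus PLC5 on the log2 scale, with siControl and with siGALNT1. Bars are 95% intervals from limma and filled points have an adjusted p below 0.05. With siControl and siGALNT1 the points lie at 5.07 and 5.07 for IFI16, at -3.26 and -3.24 for OAS1 and further apart, at 5.195 and 3.67, for IFI44. The points of IFI44L and RSAD2, and that of SAMD9L with siControl, are set against PLC5 signals not well above background, and their true place is known only as a bound.

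The nucleic acid sensors were higher in HA22T in 3 of 4 cases with siControl. IFI16, a sensor of nuclear and cytosolic DNA, lay at 1.501, 0.93 and 1.09 on the HA22T siControl arrays and at -3.83, -3.67 and -4.19 on the PLC5 ones, and with siGALNT1 at 1.15, 0.82 and 0.93 against -3.95, -4.65 and -3.72. Every HA22T array was thus above every PLC5 array by more than 4 units, whichever siRNA was used. The difference was 5.07 (SE 0.30) with siControl (limma adjusted p = 5.93e-07) and 5.07 with siGALNT1 (limma adjusted p = 6.36e-07). IFIH1 (MDA5), which binds long double-stranded RNA, differed by 1.88 with siControl (limma adjusted p = 0.00151), and DHX58 (LGP2), its helicase partner without signalling domains, by 1.57 (limma adjusted p = 0.0175). RIGI, the sensor of RNA with a 5′ triphosphate, did not pass at 0.07, although its other probe differed by 1.43.

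The 2′-5′-oligoadenylate synthetases make the messenger that activates RNase L. The neighbouring genes OAS1 and OAS2 did not share a direction. OAS1 lay at -4.26, -4.19 and -4.18 on the HA22T siControl arrays and at -0.65, -1.45 and -0.74 on the PLC5 arrays. With siGALNT1 it lay at -4.46, -5.25 and -4.38 against -1.18, -1.55 and -1.65, so it was the PLC5 cells that had more OAS1 under either siRNA. The difference was -3.26 (SE 0.31) with siControl (limma adjusted p = 1.87e-05). OAS2 was the opposite, at -1.44, -2.30 and -2.14 in HA22T siControl and -3.86, -3.17 and -3.18 in PLC5 siControl, a difference of 1.44 (limma adjusted p = 0.00608). The log2 ratio of OAS2 to OAS1 within an array therefore changed by 4.71 between the lines. OAS3 itself differed by 1.67 (limma adjusted p = 0.0415) on its brighter probe but by -0.95 on the other, so its direction is uncertain. OASL, a relative without synthetase activity that enhances RIGI signalling, differed by 1.71 (limma adjusted p = 0.0386), and EIF2AK2 (PKR), the kinase that halts translation on double-stranded RNA, by 1.06 (limma adjusted p = 0.0139).

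The IFIT proteins bind viral RNA that lacks host cap marks, and their median difference was 1.71 over 4 genes, of which 1 passed. IFIT1 lay at 2.40, 1.00 and 1.66 in HA22T siControl and at -1.04, 0.30 and 0.44 in PLC5 siControl, a difference of 1.79 (limma adjusted p = 0.0481). IFIT3, a partner that stabilises IFIT1, had a larger mean difference of 2.15 but wider scatter (limma adjusted p = 0.137), its siControl values being 1.84, -0.33 and 1.502 against -0.71 and -1.59 on the PLC5 arrays where the spot was usable. IFIT2 differed by 1.64 (limma adjusted p = 0.0598) and IFIT5 by 0.45.

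Among the antiviral GTPases only GBP1, a guanylate-binding protein that coats intracellular pathogens, passed, with -2.23, -1.69 and -1.52 in HA22T siControl and -3.65, -3.46 and -3.61 in PLC5 siControl. The groups did not overlap, and the means differed by 1.76 (limma adjusted p = 0.00206). MX2 differed by 1.69 (limma adjusted p = 0.0788) and GBP2 by 0.40.

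Of the genes for membrane proteins and nucleotide-acting enzymes, RSAD2 (viperin), which makes a chain-terminating nucleotide, lay at -2.73, -4.28 and -2.87 in HA22T siControl. On the PLC5 siControl arrays its signal was not well above background (-6.39, -7.17 and -8.66), so the line difference is a bound, at least 4.56-fold (limma adjusted p = 0.00319). With siGALNT1 it was well above background on 2 HA22T arrays only. BST2 (tetherin), which holds budding virions on the cell surface, differed by 1.40 (limma adjusted p = 0.02). ISG20, an exonuclease that degrades single-stranded RNA, was lower in HA22T siControl at 0.05, -0.55 and 0.15 against 2.19, 1.37 and 1.60 in PLC5. That difference of -1.84 (limma adjusted p = 0.000803) recurred with siGALNT1 at -2.22 (limma adjusted p = 0.000221), where the HA22T values were -0.47, -0.54 and -0.18 and the PLC5 values 2.03, 1.80 and 1.63. IFITM1, IFITM2 and IFITM3, which block virus entry at membranes, differed by 0.43, 1.22 and 0.73 and did not pass, although the second IFITM1 probe differed by 3.48.

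In the ISG15 system, UBA7, the enzyme that activates ISG15, differed most. Its siControl values were 4.03, 3.41 and 2.26 in HA22T and -0.78, 0.55 and 0.76 in PLC5, a difference of 3.06 (SE 0.81, limma adjusted p = 0.0187). HERC5, the ligase that attaches ISG15 to new proteins, lay at 0.14, -0.13 and 0.06 against -2.23, -1.88 and -1.54 (difference 1.91, limma adjusted p = 0.000522). HERC6, its relative, differed by 1.06 (limma adjusted p = 0.0406). The modifier itself did not pass: ISG15 lay at 4.12, 2.95 and 4.01 in HA22T siControl and at 2.69, 3.41 and 3.31 in PLC5, with overlapping groups (difference 0.56, limma adjusted p = 0.378). USP18, the protease that removes ISG15 and dampens the receptor, differed by -0.71 (limma adjusted p = 0.155), and TRIM21 and TRIM22 by -0.25 and -0.16.

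The ADP-ribosyltransferase group had the highest median difference of the roles, 2.28 over 4 genes, of which 3 passed. PARP9 lay at 0.69, 0.13 and 0.67 in HA22T siControl and at -2.99, -3.75 and -2.82 in PLC5, and with siGALNT1 at -0.17, -0.40 and 0.30 against -3.57, -3.60 and -3.60. The siControl means had a difference of 3.69 (SE 0.31, limma adjusted p = 7.08e-06). PARP14, a mono-ADP-ribosyltransferase, lay at -0.92, -1.22 and -1.16 against -4.26, -4.54 and -4.24 (difference 3.245, limma adjusted p = 1.76e-06). DTX3L, the ubiquitin ligase that pairs with PARP9 and sits beside it in the genome, moved less, at -0.46, -0.79 and -0.61 against -1.73, -1.93 and -2.16 (difference 1.32, limma adjusted p = 0.00257). The PARP9 to DTX3L ratio thus changed by 2.37 on the log2 scale between lines. PARP12 had siControl means of -1.38 in both lines.

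Of the transcription factors, IRF1, which drives many of these genes in response to interferon gamma, differed by 3.23 (SE 0.58, limma adjusted p = 0.00186), with 0.22, -0.69 and 0.49 in HA22T siControl and -2.43, -3.66 and -3.59 in PLC5. IRF7, the amplifier of interferon alpha genes, differed by 1.39 (limma adjusted p = 0.00517) and STAT2 by 1.36 (limma adjusted p = 0.0126). IRF9 did not pass at 0.58 (limma adjusted p = 0.0705).

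The immunoproteasome genes PSMB8 and PSMB9 sit close together in the MHC class II region and swap catalytic subunits of the proteasome for ones that favour MHC class I peptides. PSMB8 lay at 2.59, 1.80 and 2.49 in HA22T siControl and at -2.03, -1.29 and -1.99 in PLC5 siControl, and with siGALNT1 at 1.89, 1.80 and 1.98 against -1.81, -1.495 and -2.18. Each HA22T array was above each PLC5 array, by 4.06 in the siControl means (SE 0.31, limma adjusted p = 3.52e-06). PSMB9 showed no such gap, at 6.21, 5.76 and 5.86 against 6.06, 6.18 and 5.91, so the ratio of the pair changed by 4.17 on the log2 scale.

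Large differences were also found among genes whose products are less well understood. SAMD9L, a growth-restraining antiviral protein, lay at 1.93, 0.04 and 0.63 in HA22T siControl and was not well above background on any PLC5 siControl array (-6.85, -7.03 and -6.66). The groups were a measured 7.71 apart, and since the PLC5 side is only a bound, the difference was at least 81.4-fold (limma adjusted p = 4.75e-06). With siGALNT1 it lay at 1.34, -0.95 and 0.16 in HA22T and at -6.62, -7.11 and -5.70 in PLC5, where 1 of 3 arrays was well above background. Its second probe gave at least 11.9-fold with siControl. SAMD9, its neighbour and paralog, differed by 1.26 only (limma adjusted p = 0.121). IFI44L lay at -2.35, -1.69 and -1.57 in HA22T siControl and was not well above background in PLC5, at least 12.2-fold apart (limma adjusted p = 9.73e-06) and at least 9.39-fold with siGALNT1 (limma adjusted p = 2.02e-05), where its HA22T values were -2.62, -2.52 and -1.90. IFI44, next to it on the chromosome, lay at 0.92, -0.33 and 0.19 against -4.09, -6.06 and -4.64 (difference 5.195, SE 0.85, limma adjusted p = 0.00102). With siGALNT1 the IFI44 values were 0.21, -0.75 and 0.03 against -1.51, -4.81 and -5.19 (difference 3.67, limma adjusted p = 0.00938), the first PLC5 replicate standing above the others. IFI35 was lower in HA22T at -0.86, -1.79 and -1.05 against 0.13, -0.49 and -0.36 (difference -0.99, limma adjusted p = 0.0491). IFI6, a small protein of mitochondria and endoplasmic reticulum, passed only with siGALNT1 (0.80, limma adjusted p = 0.0416), and its difference with siControl was 0.52.

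**Figure D4:**
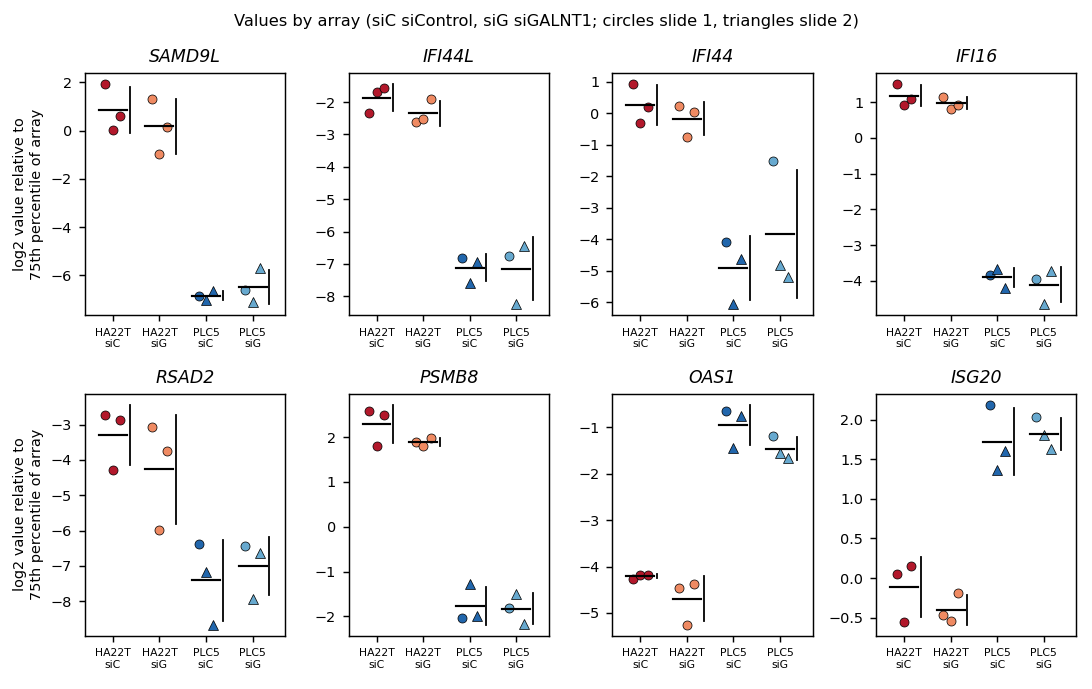
Level of 8 genes on every array, log2 minus the 75th percentile of the array, by line and siRNA. Circles are arrays on slide 1 and triangles those on slide 2, the horizontal line is the group mean and the vertical bar the SD over 3 arrays. SAMD9L, IFI44L, IFI44, IFI16, RSAD2 and PSMB8 are higher in HA22T, and OAS1 and ISG20 higher in PLC5.

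Promoter letters were present on both sides of the line comparison. Of genes with a window, the motif was in 14 of 19 (73.7%) called higher in HA22T siControl, in 1 of 3 (33.3%) called lower (ISG20, printed with its sequence) and in 10 of 15 (66.7%) not called. SAMD9L (at least 81.4-fold higher) and IFI16 (higher by 5.07) had no match in their windows.

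Since PLC5 arrays were split over the slides, their values were also compared by slide. Of 40 interferon-induced genes with a value on all 6 PLC5 arrays, 9 (22.5%) were higher on each slide 2 array than on each slide 1 array and 7 (17.5%) lower, where all 16449 genes gave 13.8% and 27.5%. IFI44 was lower on slide 2 by 2.37 in the means, MX2 by 2.02 and IRF1 by 1.57, while UBA7 was higher by 2.14, OASL by 1.61 and IFIT1 by 1.60. Within slide 1, which held 3 HA22T and 1 PLC5 siControl arrays and allowed no test, the line difference was 5.00 for IFI16, 4.36 for IFI44, 4.32 for PSMB8, 2.43 for IRF1, -3.56 for OAS1 and -2.31 for ISG20. The siGALNT1 arrays of slide 1 gave 4.91 for IFI16, 3.695 for PSMB8, -3.52 for OAS1 and -2.43 for ISG20, but 1.34 for IFI44 and 1.35 for IRF1, against 3.67 and 2.64 over both slides. With slide as a block, BST2, HERC6, IFI44, IFI6 and IFIH1 lost their siGALNT1 call, and BST2, EIF2AK2 and HERC6 their siControl call. Within slide 1 the median over the set with siControl was 1.08 against 0.0577 for all genes, and with siGALNT1 it was 1.18. MX2 differed by 0.40 there, against 1.69 over both slides.

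Other genes of the pathway were read from lists fixed by function. Of 19 genes that act in the control of interferon production, 6 were called higher in HA22T siControl and 0 lower. They included the endosomal and surface receptors TLR3 (3.77) and TLR4 (4.03), the DNA sensor CGAS (2.46) and its adaptor STING1 (3.17). Also called were the adaptor MYD88 (2.36) and the factor IRF2 (1.51). A second TLR4 probe lay much closer, with siControl means of -0.91 in HA22T and -1.50 in PLC5. TLR3 and MYD88 were well above background on only 1 PLC5 siControl array each. Of 14 receptor and signal genes, SOCS3 (3.30) and PTPN2 (0.92), both brakes on JAK-STAT signalling, were higher, while PTPN6, a phosphatase of blood cells, was at least 34.2-fold lower, and the receptor chain IFNAR2 (-1.62) and the kinase JAK1 (-0.94) were lower. The list's median was 0.21. Of 17 interferon genes with a probe 8 were counted, and IFNK (0.98) was higher and IFNA7 (-1.01) lower. A further 42 interferon-induced genes outside the set gave 17 higher, among them DDX60 (4.53), TAP2 (3.16), LY6E (2.89) and SLFN11 (at least 4.38-fold, being dim in PLC5), and 3 lower, SHFL (-2.16), BATF2 (-1.47) and TRIM5 (-0.93), with a median of 0.62. In each case the background was the same 14.2% higher and 12.4% lower.

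The effect of the GALNT1 siRNA within a line was tested next. In HA22T, 0 of 47 counted interferon-induced genes passed at an adjusted p of 0.05 by limma, in either direction, as did 0% of all 16963 genes. At an unadjusted p below 0.05, limma gave 1 gene (DTX3L) and the methods' t-test 3 (DTX3L, PSMB9 and STAT2), against 2.64% and 4.07% of all genes. By the criterion of at least 1.5-fold with an unadjusted p below 0.05, DTX3L was the only gene lower and 0 were higher, where 1.05% and 1.47% of all genes passed. DTX3L lay at -0.46, -0.79 and -0.61 with siControl and at -1.18, -1.71 and -1.26 with siGALNT1, a difference of -0.76 (SE 0.25, limma adjusted p = 1). Its groups did not overlap. The siControl and siGALNT1 values also did not overlap for HERC5, OAS1, PSMB9 and STAT2, all lower with siGALNT1, so that 5 of 47 genes (10.6%) were separated downwards against 5.13% of all genes, and none upwards against 2.86%. Among them OAS1 was dim, being well above background on only 1 HA22T siGALNT1 array. With 3 arrays against 3, an exact permutation test of 1 gene cannot go below p = 0.1.

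None of the 47 genes passed in HA22T, and most had a slightly lower mean. With siGALNT1, 43 of 47 genes had a lower mean, as did 63.5% of all genes, and the median difference was -0.35 against -0.10 over all genes. The downward share depends on the scaling of the arrays, being 38 of 47 with 46.2% of all genes when flagged spots were left out of the percentile, and 44 with 70.4% when arrays were scaled to their medians. Relative to the median of all genes, the set's median was lower by 0.21 to 0.28 on the log2 scale over 6 scalings. The largest differences were RSAD2 (-0.98), IFITM1 (0.77), DTX3L (-0.76), SAMD9L (-0.68), XAF1 (0.67) and STAT2 (-0.65), each with a limma adjusted p of 1. RSAD2 lay at -2.73, -4.28 and -2.87 with siControl and at -3.07, -5.995 and -3.74 with siGALNT1, and SAMD9L at 1.93, 0.04 and 0.63 against 1.34, -0.95 and 0.16. Both moved when single arrays were left out. Without the second siGALNT1 replicate RSAD2 differed by -0.11 and SAMD9L by -0.12, and without the first siGALNT1 replicate by -1.575 and -1.26. Leaving out 1 array keeps its same-numbered partner, and in the pairs described next both genes were lower every time. Without the first siControl replicate SAMD9L differed by -0.15. IFITM1 lay at 0.39, 1.60 and 1.94 against 2.12 and 2.04 on the usable siGALNT1 spots, and its difference was 0.31 without the first siControl replicate and 0.05 on its second probe. XAF1 lay at -2.31 and -2.97 against -1.97, -1.92 and -2.03, with 0.34 to 0.997 when 1 array was left out. STAT2 lay at 2.06, 1.77 and 2.42 with siControl and at 1.27, 1.495 and 1.53 with siGALNT1. Without the first HA22T siControl replicate the set's median was -0.198 and that of all genes -0.0293. Without the second siGALNT1 replicate the set's median was -0.229, and DTX3L no longer met the criterion.

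Same-numbered HA22T arrays deviated together, so the numbers were also taken as pairs. Of 44 genes with a value in all 3 pairs, 23 (52.3%) were lower with siGALNT1 in each pair and 1 (2.27%, USP18) was higher, against 25.6% and 9.54% of all genes. Counted from the median of all genes in each pair, 18 (40.9%) were below it every time, against 15.9% of all genes. These 18 were the IFI44 and IFI44L pair, HERC5, IFI16, IFI35, IFIH1, IFIT1, IFIT2, IFIT5, OAS3, OASL, PARP9, DTX3L, PSMB9, RSAD2, SAMD9, SAMD9L and STAT2. IFIT1 differed by -0.99, -0.44 and -0.43 in the pairs, DTX3L by -0.72, -0.91 and -0.65, and SAMD9L by -0.59, -0.99 and -0.47. RSAD2 differed by -0.34, -1.72 and -0.87. Its second siGALNT1 value, -5.995, lay below the lowest signal well above background on that array (-4.08). The second IFIT2 probe differed by 0.15 in HA22T, against -0.55 on the probe read. With the replicate number as a block in limma, IFIT1, DTX3L and SAMD9L met the criterion, and 0 passed after adjustment.

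**Figure D5:**
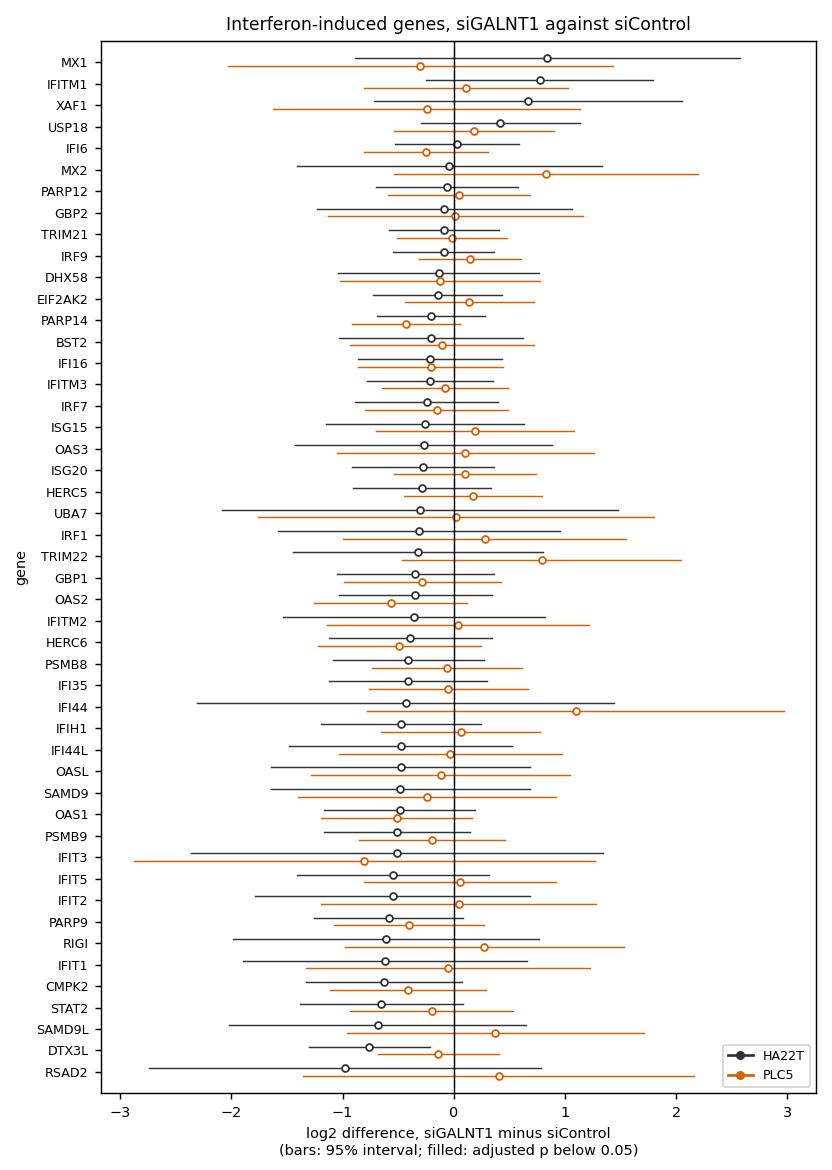
Difference with the GALNT1 siRNA, siGALNT1 minus siControl on the log2 scale, for each gene in HA22T and in PLC5. Bars are 95% intervals from limma and no point has an adjusted p below 0.05. In HA22T most points lie a little below 0, and in PLC5 they lie on both sides.

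In PLC5 no interferon-induced gene passed either. By limma 0 of 44 counted genes had an adjusted p below 0.05 in either direction (0% of all 17311 genes) and 0 an unadjusted p below 0.05, while the methods' t-test gave 1 at that level (PARP14). The criterion of 1.5-fold with an unadjusted p below 0.05 was met by 0 genes in either direction, against 0.266% higher and 0.497% lower of all genes. Separated groups were found for 1 gene downwards, PARP14, and 0 upwards, against 1.31% and 2.14% of all genes. PARP14 lay at -4.26, -4.54 and -4.24 with siControl and at -4.95, -4.68 and -4.70 with siGALNT1 (difference -0.43, limma adjusted p = 1). It was well above background on 2 arrays of each PLC5 group. The signs were mixed, 24 lower and 20 higher, with 42.5% of all genes lower, and the median was -0.05 against 0.04. The largest difference was IFI44 at 1.095 (SE 0.85), with -4.09, -6.06 and -4.64 against -1.51, -4.81 and -5.19. It was -0.07 without the first siGALNT1 replicate. MX2 lay at -1.74, -3.41 and -3.92 with siControl and at -0.78, -2.97 and -2.83 with siGALNT1, a difference of 0.83 that was 0.12 without the first siGALNT1 replicate. Its siGALNT1 value was the higher for each replicate number. The first replicates of both groups were on slide 1, where IFI44 and MX2 were brighter, so leaving out only 1 of them unbalances the slides. IFIT3 lay at -0.71 and -1.59 against -3.50, -0.59 and -1.78, a difference of -0.81 that was -0.03 without the first siGALNT1 replicate. TRIM22 lay at -4.86 and -4.45 against -5.14, -3.20 and -3.25 (0.79, or 1.43 without that replicate). OAS2 lay at -3.86, -3.17 and -3.18 against -4.29, -3.89 and -3.74 (-0.57), and OAS1 at -0.65, -1.45 and -0.74 against -1.18, -1.55 and -1.65 (-0.51). HERC6 differed by -0.49, CMPK2 by -0.41 and PARP9 by -0.40. All of these had a limma adjusted p of 1 and overlapping groups.

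The siRNA effect was then compared between lines by the interaction term of the same fit. Of 47 counted genes, 0 had an adjusted p below 0.05 by limma in either direction, as did 0% of all 17891 genes, and 0 an unadjusted p below 0.05. IFI44 had a term, HA22T effect minus PLC5 effect, of -1.53 and TRIM22 one of -1.11. The term of RSAD2 cannot be read, since RSAD2 was not well above background in either PLC5 group. None of the other interferon lists had a call in either line. Of 9 counted interferon genes in HA22T, 7 had a higher mean with siGALNT1, against 36.5% of all genes, and IFNA7 alone met the 1.5-fold criterion (0.86), against the 1.47% given above. Some counted ones were dim, such as IFNB1, well above background on 1 siControl and 2 siGALNT1 arrays of HA22T. IFNA6, IFNA8, IFNA14 and IFNA16, not well above background on any HA22T array, also had higher means. The count therefore cannot be read as more interferon transcript.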

How the data were processed

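The 12 arrays were Agilent SurePrint G3 human gene expression arrays, 1 colour each, scanned and read by Agilent Feature Extraction 10.5.1.1, which gave the deposited processed signal intensity of each spot after its own background correction. The authors also deposited a log2 table of the same arrays, which was used as an alternative and followed the scanner values scaled to the 75th percentile. Here log2 of the processed signal minus the 75th percentile over all spots that were no controls was taken per array, without non-uniform and control spots, and repeated spots were averaged to 1 value a probe. Probes were named through RefSeq transcript accessions. The number of arrays, 3 a group, limits the precision.

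All 4 groups were fitted together in limma 3.58.1 (R 4.3.3) with eBayes, and p-values were adjusted by Benjamini-Hochberg over counted probes, those that exceeded background on 3 or more of the 6 arrays of a comparison. The study's methods set a 1.5-fold change with p below 0.05, which was counted beside it. A group not well above background on any array gave a bound, from the lowest signal well above background on each array. The script was tested on simulated data. The genes and lists were chosen with earlier results of these data known. Outside the interaction term, all genes passing the test or the criterion were named (the 30 largest where more) or else the 10 largest, together with GALNT1 and GAPDH. Per-array values were given for the 6 largest of these comparisons, IFI44L in HA22T only, and for others chosen after their values were seen. 1 signal transduction gene of the lists is not reported here. GAPDH differed by -0.09 in HA22T and 0.17 in PLC5 with siGALNT1. The correlation of deviations from the group means between arrays with the same number was 0.549, 0.403 and 0.430 in HA22T, so these were paired from the values, and 0.706, -0.023 and 0.164 in PLC5, which were not. Background correction, normalization, filter, slide, block, test, probe rule and each array left out were varied, and a percentile without non-uniform spots was added after seeing the data.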

Additional observations from a re-analysis of the deposited data

How the results depend on the processing

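No interferon-induced gene was called for the siRNA effect in HA22T, in PLC5 or for its difference between lines under any of the 28 alternatives. The number meeting the 1.5-fold criterion in HA22T was 2 with normexp background correction, 2 with a trend in eBayes and 2 with the methods' t-test, and 0 to 2 with 1 array left out. In PLC5 it was 1 with slide as a block and 0 to 2 with 1 array left out. The replicate block gave 3 genes past the criterion in HA22T and 1 (MX2) in PLC5, and with the line comparisons blocked by number, 26 called with siControl and 22 with siGALNT1, so it changed no other count by over 1.5 times. Across lines and in PLC5 the numbers did not pair the arrays throughout. The first replicates of the PLC5 groups, both on slide 1, did deviate together (correlation 0.706).

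The line difference with siControl gave 20 to 28 calls with 1 array left out, and 15 of its 27 genes (DTX3L, GBP1, HERC5, IFI16, IFI44, IFI44L, IRF1, IRF7, ISG20, OAS1, PARP14, PARP9, PSMB8, RSAD2 and SAMD9L) kept their call under every alternative that tested them. IFI35 lost its call under 18, HERC6 and IFIT1 under 12 and OAS3 under 10. With siGALNT1, 9 of 21 did so (IFI16, IFI44L, ISG20, OAS1, OAS2, PARP14, PARP9, PSMB8 and SAMD9L), IFI6 lost its call under 16, and the methods' t-test called 11. The median with siControl was 1.08 within slide 1. The cause was not tested.

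Signs turned for GAPDH in HA22T and for CMPK2 and IFI44 in PLC5, whose main values were -0.09, -0.41 and 1.095. GAPDH in HA22T was 0.034 with the percentile without flagged spots and ran from -0.205 to 0.065 with 1 array left out, CMPK2 in PLC5 was 0.014 with normexp, and IFI44 in PLC5 ran from -0.068 to 1.77 with 1 array left out. For IFI44L, RSAD2 and SAMD9L, counted with siControl through HA22T arrays alone, the background in PLC5 limits the line difference to a bound.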
